A study of Mus musculus with 9 samples.

Results

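The genes described here are 10 components of the receptors and of the STAT6 pathway through which the type 2 cytokines IL-4 and IL-13 act on cells, out of 34638 genes in the deposited table of mouse lung RNA-seq. They were chosen by name, for their known roles, by a rule that uses no measured value, though with earlier results of these data known: 4 receptor chains (*Il4ra*, *Il13ra1*, *Il13ra2*, *Il2rg*), 2 receptor kinases (*Jak1*, *Jak3*), the transcription factor *Stat6*, and 3 feedback inhibitors (*Socs1*, *Socs3*, *Cish*). All 10 passed the filter on low values, *Il13ra2* and *Socs1* only through their levels in mice given IL-33. Whole lungs of 9 wild-type C57BL/6 mice were sequenced, 3 in each of 3 groups. PBS mice were instilled with phosphate buffered saline. IL-33 mice received 0.5 µg of recombinant mouse IL-33 into the trachea on days 0, 1, 2 and 3. IL-33+LM8 mice received the same challenges after LM8, an inhibitor of the adaptor MyD88, had been given into the peritoneum at 10 mg/kg. The methods give female mice of 6 to 8 weeks and collection on day 4 for the PBS and IL-33 mice. They do not state the sex, the age or the day of collection for the LM8 mice. No group received LM8 without IL-33, so an effect of LM8 on its own was not measured.

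IL-33 is an alarmin released by damaged epithelium that signals through its receptor ST2 and MyD88 and drives innate lymphoid cells and T helper cells to make IL-13 and IL-4. IL-4 binds the receptor chain IL-4Rα, which pairs with the common gamma chain on blood-derived cells (the type I receptor) or with IL-13Rα1 on epithelium, fibroblasts and myeloid cells (the type II receptor, which IL-13 also uses). Janus kinases bound to these chains phosphorylate STAT6, which enters the nucleus and turns on genes of mucus production, of alternatively activated macrophages and of eosinophil recruitment. IL-13Rα2 binds IL-13 tightly but has a short intracellular tail and is known mainly as a decoy, while the SOCS family proteins are induced by cytokine signalling and restrain it.

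Promoter sequence is shown for the members in which a short motif was found near the start of the gene, because 2 of them are feedback genes known to be switched on by STAT proteins and the other is the decoy receptor, the member at 0 counts in every PBS library. The windows are the 300 bases around each start site (250 before it and 50 after) in RefSeq on GRCm38.p6, and all 10 members had one. STAT dimers in general bind TTCNNNGAA, and STAT6 is known to prefer the spacing TTCNNNNGAA; both patterns read the same on either strand, and the motifs shown do not overlap one another. The wider motif was in the window of 0 members and in 6.95% of all 32851 windows. The narrower motif was in 2 members, *Cish* and *Socs3*, and in 8.30% of all windows. TATAAA, the TATA box, searched on both strands, was in 1 member, *Il13ra2*, and in 13.6% of all windows. In *Cish* a pair of the narrower motifs begins at the annotated start site and 11 bases after it (chr9:107296655-107296682, plus strand), in *Socs3* the motif begins 154 bases before the start (chr11:117969503-117969530, minus strand), and the 100 bases before the start of *Il13ra2* (chrX:147429193-147429292, minus strand) hold a TATA box that begins 31 bases before it. Capitals mark the motifs in the lines that follow, each written 5′ to 3′ on the strand of the gene.
Cish: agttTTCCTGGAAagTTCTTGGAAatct
Socs3: gaaaccagccTTCTTAGAAgggaggggg
Il13ra2: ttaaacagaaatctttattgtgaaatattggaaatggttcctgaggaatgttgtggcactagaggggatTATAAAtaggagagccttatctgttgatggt
A match describes these letters and is not evidence of binding, which was not measured.

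Total counts lay between 53877663 and 90607218 per mouse. All 7 lung markers were present, led by *Scgb1a1*, and summed to 34123 to 37064 FPKM (fragments counted per length of transcript and per size of library) in PBS mice, 15477 to 16673 in IL-33 mice and 28788 to 31206 in IL-33+LM8 mice, with 6 of 7 lower with IL-33 than with PBS and 7 of 7 higher with LM8 than with IL-33. In the test given below, 27.4% of all tested genes were higher and 27.2% lower with IL-33 than with PBS. Between LM8 and IL-33 mice 12.6% were higher with LM8. Markers of several cell types moved with the groups, and in whole lung a change in the number of cells of a type and a change of RNA per cell cannot be told apart. The 8 pan-leukocyte markers summed to 145 to 163 FPKM in PBS mice, 625 to 653 in IL-33 mice and 399 to 423 in IL-33+LM8 mice, with no marker at 0. The 6 T cell markers summed to 8.84 to 9.43, 13.7 to 14.5 and 10.3 to 14.0 FPKM, and the 7 neutrophil markers to 26.3 to 32.9, 188 to 211 and 871 to 1019 FPKM. Eosinophil markers summed to 101 to 114, 589 to 645 and 142 to 177 FPKM, with *Epx* at 0 in every PBS mouse. Most of this sum was *Ear2*, at means of 83.2, 553 and 145 FPKM. Macrophage markers summed to 80.4 to 89.8, 222 to 236 and 122 to 129 FPKM, fibroblast markers to 213 to 262, 508 to 581 and 210 to 260 FPKM (with IL-33 against PBS, 3 of 7 were higher, the collagens *Col1a1*, *Col1a2* and *Col3a1*, and 4 lower), endothelial markers to 605 to 669, 341 to 372 and 505 to 570 FPKM, and epithelial markers to 229 to 241, 239 to 254 and 216 to 232 FPKM. The part of these cell types in the results was not tested.

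One library of each group stood apart from its group in the same way: PBS replicate 3, IL-33 replicate 1 and IL-33+LM8 replicate 3. Their deviations from their group means correlated with each other at 0.77 to 0.80 over 15882 genes, and with those of libraries of the other groups outside this set at -0.62 to -0.50. The set was found by a search over all sets of 1 library per group for the highest such correlation. Deviations within a group also sum to 0, which pulls the second values below 0. Both ranges therefore describe the set and are not a test of it. *Alb*, a liver gene chosen after its values were seen, was at 0 to 0.627 FPKM in these 3 libraries and at 139 to 267 FPKM in the other 6. Among the members this shift was largest for *Socs1*, which averaged 1.77 log2 units above its group mates in these libraries, and the shift of *Socs3* was 0.24. The shift of *Il13ra2* averaged 0.15 but ran from -0.21 in IL-33 mice to 0.67 in IL-33+LM8 mice, with 0 counts in every PBS mouse. The average shifts of the other members were smaller (-0.07 to 0.05). Values without these libraries are therefore also given for the members whose call changed, and as counts for some of the other lists. Those of *Il13ra2*, *Socs3* and single genes of the other lists are not given.

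Compared with PBS, IL-33 raised most of the pathway. In edgeR's quasi-likelihood test, at a Benjamini-Hochberg adjusted p under 0.05 over all tested genes, 8 of the 10 members were higher in IL-33 mice, 1 was lower (*Stat6*) and 1 did not pass (*Il13ra1*). By the same rule 54.6% of all 16831 tested genes passed, 27.4% higher and 27.2% lower. *Il13ra2* and *Socs1* passed the filter, a mean of 0.5 FPKM over the 9 mice, only through the groups given IL-33. Their PBS means were 0 and 0.250 FPKM, so their calls against PBS are not independent support. The median log2 fold change of the members was 0.75, against -0.005 for all tested genes. With a log2 fold change of at least 1 also required, 4 members passed (*Il13ra2*, *Socs1*, *Socs3* and *Il2rg*), all of them higher, against 17.0% of all tested genes, 10.8% higher and 6.24% lower. With LM8, 8 members were higher than in PBS mice, 0 were lower in this edgeR test (0 at an unadjusted p under 0.05 and 0 with DESeq2 or limma), and *Stat6* and *Socs1* did not pass, beside 29.7% of all 16829 tested genes, 16.3% higher and 13.4% lower. The members' median log2 fold change there was 0.79. Between IL-33+LM8 and IL-33 mice 2 members were higher with LM8 (*Il4ra* and *Il13ra1*), 1 was lower (*Il2rg*) and 7 did not pass, a share near that of all genes: 26.5% of all 16831 tested genes passed, 12.6% higher and 13.9% lower. The members' median log2 fold change was 0.06. In edgeR 0 members passed there with a log2 fold change of at least 1 (5.39% of all tested genes did, 1.46% higher and 3.93% lower), and 2 members, *Il13ra2* and *Socs3*, did so between IL-33+LM8 and PBS mice (7.33% of all tested genes, 5.87% higher and 1.46% lower). The 3 comparisons share their mice, so their values stand side by side and are not independent of each other.

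**Figure D1:**
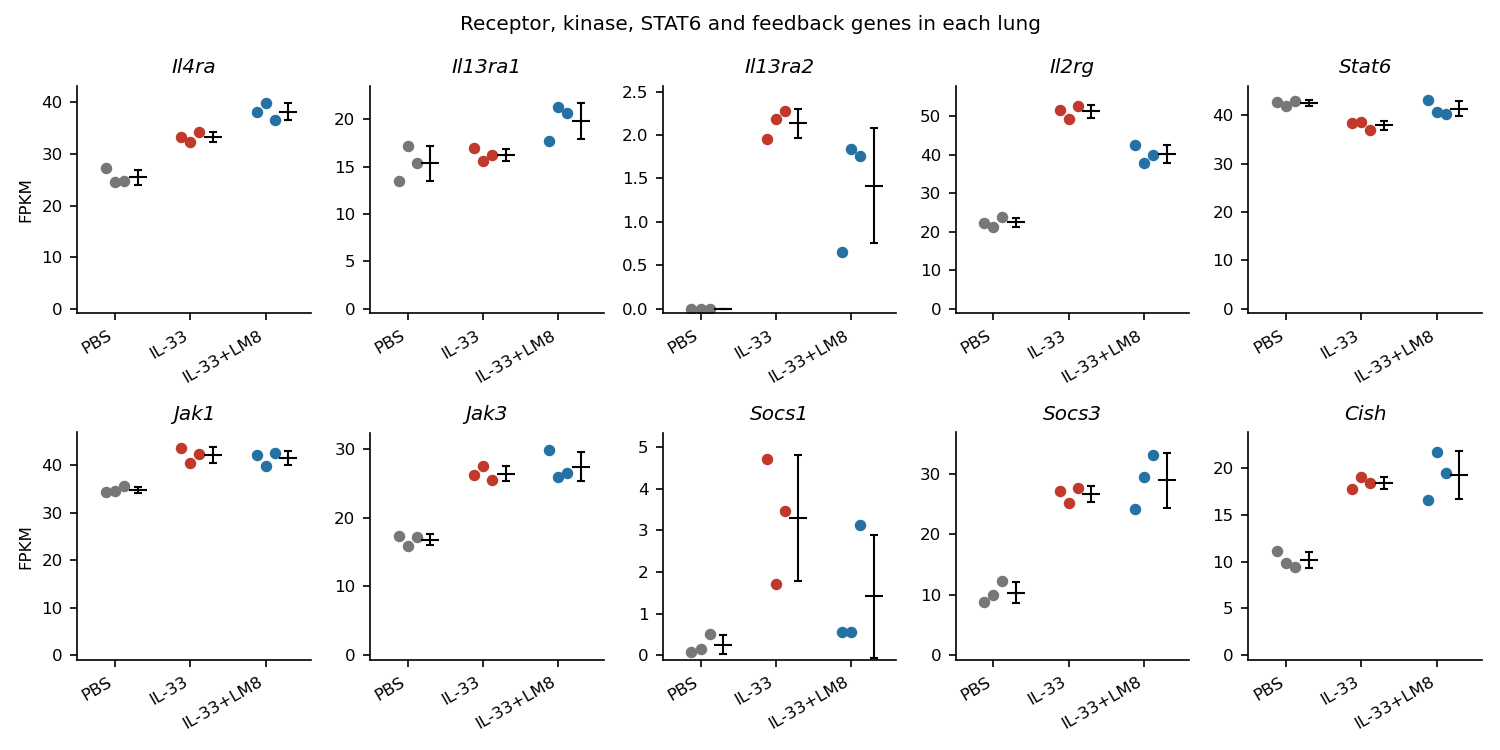
FPKM of the 10 pathway genes in each lung (points, 3 mice per group in the order of their replicate numbers), with the group mean and SD beside them as a dash and bars; each panel has its own linear axis that includes 0. *Il4ra* rises from 24.5 to 27.2 in PBS mice to 36.6 to 39.9 in IL-33+LM8 mice, *Il2rg* is highest in IL-33 mice at 49.3 to 52.7, and *Il13ra2* is at 0 in every PBS mouse.

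*Il4ra* encodes the IL-4Rα chain that binds IL-4 and is part of both receptor types (ENSMUSG00000030748, chromosome 7, 125151292 to 125178646 in the deposited table). Its level was 27.2, 24.5 and 24.8 FPKM in the PBS mice, 33.3, 32.3 and 34.2 FPKM in the IL-33 mice and 38.1, 39.9 and 36.6 FPKM in the IL-33+LM8 mice. The 3 groups did not overlap, and the mice given LM8 had the highest levels. The log2 fold change from PBS was 0.38 with IL-33 (SE 0.06, edgeR adjusted p 0.0013) and 0.60 with IL-33+LM8 (SE 0.07, edgeR adjusted p 0.0012). The step from IL-33 to IL-33+LM8 was 0.20 (SE 0.06, edgeR adjusted p 0.037). This last call was lost when any mouse other than IL-33+LM8 replicate 3 was left out, and without the 3 libraries that stood apart the log2 fold change was 0.24 (edgeR adjusted p 0.15).

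*Il13ra1* encodes the second chain of the type II receptor, through which IL-13 signals (ENSMUSG00000017057, chromosome X, 35375763 to 35434912). It was at 13.4, 17.2 and 15.4 FPKM in the PBS mice, 16.9, 15.6 and 16.2 FPKM in the IL-33 mice and 17.7, 21.2 and 20.6 FPKM in the IL-33+LM8 mice. PBS and IL-33 mice overlapped, whereas all 3 mice given LM8 lay above every mouse of the other groups. The log2 fold change with IL-33 was 0.08 (SE 0.09, edgeR adjusted p 0.46), the only member of the pathway whose value with IL-33 did not pass. With LM8 it was 0.29 above the IL-33 mice (SE 0.08, edgeR adjusted p 0.039) and 0.39 above the PBS mice (SE 0.11, edgeR adjusted p 0.031). The first of these calls was lost when any mouse other than IL-33+LM8 replicate 1 was left out, and the second without PBS replicate 1 or 3 or IL-33+LM8 replicate 2 or 3 (edgeR adjusted p 0.076 to 0.10). Without the 3 libraries that stood apart the values were 0.30 (edgeR adjusted p 0.16) and 0.36 (edgeR adjusted p 0.15).

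*Il13ra2* encodes the decoy receptor for IL-13, whose promoter window is shown above (ENSMUSG00000031289, chromosome X, 146166472 to 146212188 in the table). Its counts were 0, 0 and 0 in the PBS mice, 305, 313 and 293 in the IL-33 mice and 93, 273 and 379 in the IL-33+LM8 mice, or 1.95, 2.19 and 2.27 FPKM with IL-33 and 0.650, 1.84 and 1.76 FPKM with LM8. The gene was therefore detected in every challenged lung and in no PBS lung. Against a floor of 3 counts in each PBS library, its depth-scaled counts with IL-33 were at least 111-fold higher, and those with IL-33+LM8 at least 74.7-fold higher. The mouse with the lowest level was at least 94.9-fold above that floor in the IL-33 group and at least 32.1-fold in the LM8 group. Both differences passed the edgeR test (adjusted p 2.1e-05 and 0.0013). All 3 LM8 mice were below every IL-33 mouse in FPKM, with replicate 1 far below the other two, but the difference did not pass: the log2 fold change was -0.59 (SE 0.37, edgeR adjusted p 0.30). Without IL-33+LM8 replicate 1 it was -0.24.

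The ratio of the decoy to the signalling chain was 0 in PBS lungs, 0.132 ± 0.014 (SD, n = 3) in IL-33 lungs and 0.070 ± 0.028 (SD, n = 3) in IL-33+LM8 lungs, both genes measured per length in FPKM. Every IL-33 lung had a higher ratio than every LM8 lung. The log2 difference between these groups was -1.02, or -0.61 without IL-33+LM8 replicate 1. Its exact two-sided permutation p with all mice was 0.1, which is the smallest that 3 mice against 3 can give. The same p was found for each challenged group against PBS, so this design could not have reached 0.05.

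*Il2rg* encodes the common gamma chain, the partner of IL-4Rα in the type I receptor and a chain of the receptors for IL-2, IL-7, IL-9, IL-15 and IL-21 as well (ENSMUSG00000031304, chromosome X, 100307984 to 100311861). Its level was 22.3, 21.2 and 23.7 FPKM in the PBS mice, 51.5, 49.3 and 52.7 FPKM in the IL-33 mice and 42.5, 37.8 and 40.0 FPKM in the IL-33+LM8 mice. The 3 groups were fully separate, with the LM8 mice between the other two. It was 1.19 log2 units higher with IL-33 than with PBS (SE 0.06, edgeR adjusted p 5e-06) and 0.85 higher with IL-33+LM8 than with PBS (SE 0.07, edgeR adjusted p 0.00022). With LM8 it fell by 0.35 relative to IL-33 (SE 0.06, edgeR adjusted p 0.0039). This fall passed with any single mouse left out, and without the 3 libraries that stood apart it was of the same size but did not pass (-0.34, edgeR adjusted p 0.080). The pan-leukocyte markers moved in the same directions: 8 of 8 were higher with IL-33 than with PBS, 8 of 8 were lower with LM8 than with IL-33, and 8 of 8 were higher with LM8 than with PBS. The shares of all tested genes with these calls were 27.4%, 13.9% and 16.3%.

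The balance between the receptor chains differed among the groups. These ratios were chosen after the values were seen and are given without a test. *Il2rg* to *Il4ra* was 0.880 ± 0.070 (SD, n = 3) in PBS mice, 1.54 ± 0.011 with IL-33 and 1.05 ± 0.092 with IL-33+LM8, so the gamma chain exceeded IL-4Rα in every IL-33 lung and in no PBS lung. *Il13ra1* to *Il4ra* was 0.605 ± 0.104, 0.488 ± 0.017 and 0.520 ± 0.051 in the same order. Set against *Ptprc*, which encodes the leukocyte protein CD45, *Il2rg* was at 2.90 ± 0.23, 2.48 ± 0.079 and 2.59 ± 0.16, while *Il4ra* was at 3.31 ± 0.40, 1.62 ± 0.055 and 2.49 ± 0.39. The level of the gamma chain thus followed that of CD45 more closely across the groups than the level of IL-4Rα did. *Ptprc* had the smallest rise with IL-33 of the 8 pan-leukocyte markers, whose log2 fold changes were 1.41 to 2.89 (median 2.04). Ratios to the other markers were not computed.

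**Figure D2:**
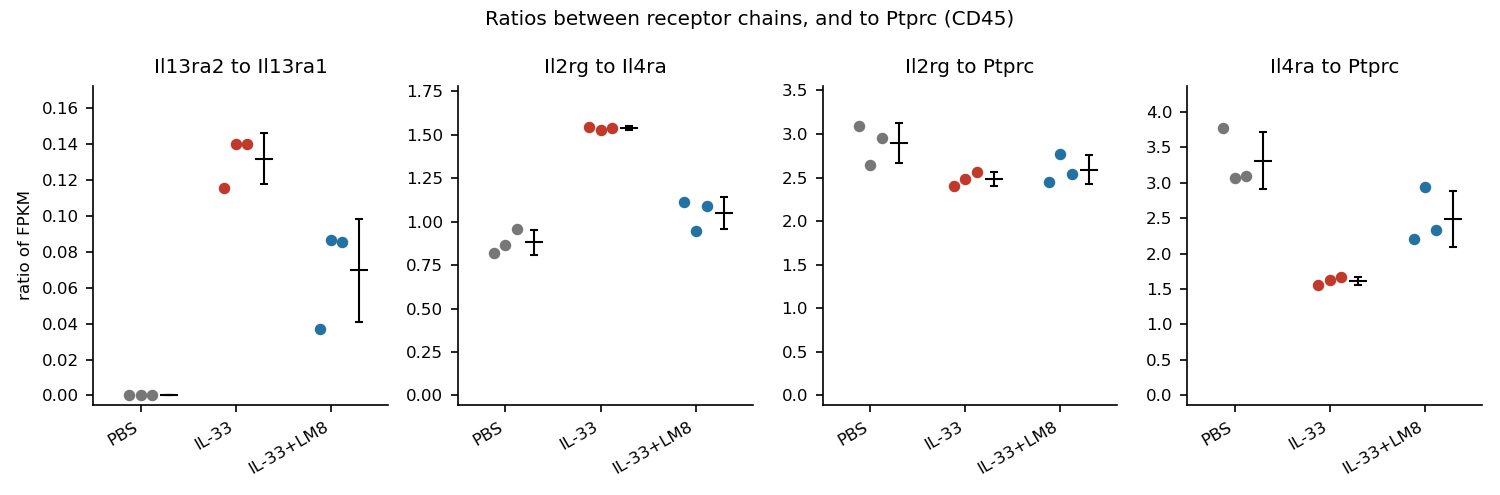
Ratios of FPKM between receptor chains and to *Ptprc* (CD45) in each lung (points, 3 mice per group), with group mean and SD as a dash and bars on linear axes that include 0. The ratio of *Il13ra2* to *Il13ra1* is 0 in PBS lungs and averages 0.132 in IL-33 and 0.070 in IL-33+LM8 lungs, and *Il2rg* to *Il4ra* is highest in IL-33 lungs at 1.54.

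*Jak1* encodes the kinase that is bound to IL-4Rα (ENSMUSG00000028530, chromosome 4, 101009564 to 101122479). It was at 34.3, 34.5 and 35.6 FPKM in the PBS mice, 43.7, 40.5 and 42.3 FPKM in the IL-33 mice and 42.2, 39.9 and 42.5 FPKM in the IL-33+LM8 mice. Both challenged groups lay above the PBS mice and overlapped each other. The log2 fold change from PBS was 0.27 with IL-33 (SE 0.05, edgeR adjusted p 0.002) and 0.27 with IL-33+LM8 (SE 0.06, edgeR adjusted p 0.011), and between the challenged groups it was -0.02 (SE 0.05, edgeR adjusted p 0.81). The difference between LM8 and PBS mice did not pass without IL-33+LM8 replicate 3 (edgeR adjusted p 0.054) or without the 3 libraries that stood apart (0.26, edgeR adjusted p 0.14).

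*Jak3* encodes the kinase bound to the common gamma chain and is found mainly in blood-derived cells (ENSMUSG00000031805, chromosome 8, 72128940 to 72143219). It was at 17.3, 15.9 and 17.2 FPKM in the PBS mice, 26.1, 27.5 and 25.5 FPKM in the IL-33 mice and 29.8, 25.9 and 26.5 FPKM in the IL-33+LM8 mice. Here too the challenged groups overlapped each other and lay above the PBS mice. From PBS it was 0.65 log2 units higher with IL-33 (SE 0.06, edgeR adjusted p 6.5e-05) and 0.72 higher with IL-33+LM8 (SE 0.07, edgeR adjusted p 0.00057), and from IL-33 to LM8 it was 0.05 (SE 0.06, edgeR adjusted p 0.59). The receptor chain and its kinase were therefore not in constant proportion: *Jak3* to *Il2rg*, a ratio also chosen after the values were seen, was 0.751 ± 0.026 (SD, n = 3) in PBS mice, 0.517 ± 0.038 with IL-33 and 0.683 ± 0.019 with IL-33+LM8.

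*Stat6* was the member with the highest level in PBS lungs and the 1 that was lower with IL-33 (ENSMUSG00000002147, chromosome 10, 127478855 to 127496826). It was at 42.7, 41.9 and 42.9 FPKM in the PBS mice, 38.3, 38.5 and 36.9 FPKM in the IL-33 mice and 43.1, 40.6 and 40.2 FPKM in the IL-33+LM8 mice. The IL-33 mice lay below all others, and the LM8 mice overlapped the PBS mice. The log2 fold change was -0.17 with IL-33 (SE 0.04, edgeR adjusted p 0.013), a mean at 0.892 of that in PBS mice. This call was lost without IL-33 replicate 1 (edgeR adjusted p 0.050) or replicate 3 (edgeR adjusted p 0.071), and without the 3 libraries that stood apart the value was -0.16 (edgeR adjusted p 0.11). With LM8 the log2 fold change was 0.12 from IL-33 (SE 0.05, edgeR adjusted p 0.10) and -0.03 from PBS (SE 0.05, edgeR adjusted p 0.75). These are levels of the transcript, and phosphorylation of STAT6 was not measured.

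*Socs1* encodes an inhibitor that binds Janus kinases directly and is induced by many cytokines, IL-4 and interferons among them (ENSMUSG00000038037, chromosome 16, 10600104 to 10603400). Relative to its mean it had the widest spread between mice of the 10 members. Its level was 0.083, 0.155 and 0.512 FPKM in the PBS mice, 4.71, 1.70 and 3.46 FPKM in the IL-33 mice and 0.561, 0.565 and 3.12 FPKM in the IL-33+LM8 mice. In every group the highest mouse was the one whose library stood apart with those of the other groups. All IL-33 mice lay above all PBS mice, and the log2 fold change was 3.67 (SE 0.69, edgeR adjusted p 0.0032), or 4.37 without the 3 libraries that stood apart (edgeR adjusted p 0.00071).

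The value of *Socs1* with LM8 depended on those libraries. Against IL-33 its log2 fold change was -1.20 (SE 0.71, edgeR adjusted p 0.26) with all mice, -2.19 (edgeR adjusted p 0.021) without the 3 libraries, -1.63 (edgeR adjusted p 0.024) with a term for them in the fit, and -2.53 (edgeR adjusted p 0.010) without IL-33+LM8 replicate 3 alone. In the 6 remaining libraries the TMM-normalised CPM (counts scaled to library size) were 0.275 and 0.483 with PBS, 5.19 and 10.6 with IL-33, and 1.71 and 1.75 with IL-33+LM8, so that each LM8 mouse lay between the other groups. Against PBS the log2 fold change with LM8 was 2.48 (SE 0.89, edgeR adjusted p 0.075) with all mice and 2.19 (edgeR adjusted p 0.019) without the 3 libraries. With replicate numbers as a block, which puts the libraries of these groups that stood apart into the same block, it was 2.38 (edgeR adjusted p 0.0015). Without PBS replicate 3 alone it was 3.52 (edgeR adjusted p 0.041), and without IL-33+LM8 replicate 3 alone it was 1.15 (edgeR adjusted p 0.27). What sets these 3 libraries apart was not tested.

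*Socs3*, an inhibitor best known for restraining the IL-6 family of receptors, holds the promoter motif shown above (ENSMUSG00000053113, chromosome 11, 117856905 to 117860873 in the table). It was at 8.83, 9.98 and 12.3 FPKM in the PBS mice, 27.1, 25.1 and 27.6 FPKM in the IL-33 mice and 24.1, 29.5 and 33.2 FPKM in the IL-33+LM8 mice. Both challenged groups were far above the PBS mice, and the LM8 mice spanned the range of the IL-33 mice on both sides. Relative to PBS it was 1.36 log2 units higher with IL-33 (SE 0.12, edgeR adjusted p 6.4e-05) and 1.5 with IL-33+LM8 (SE 0.15, edgeR adjusted p 0.00058), and from IL-33 to LM8 it was 0.12 (SE 0.11, edgeR adjusted p 0.49).

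*Cish*, a target of STAT5 whose product competes for sites on activated receptors, holds the pair of motifs shown above (ENSMUSG00000032578, chromosome 9, 107173225 to 107179983 in the table). It was at 11.2, 9.88 and 9.48 FPKM in the PBS mice, 17.7, 19.1 and 18.4 FPKM in the IL-33 mice and 16.6, 21.7 and 19.5 FPKM in the IL-33+LM8 mice. As for *Socs3*, the LM8 mice lay on both sides of the IL-33 mice and above all PBS mice. The log2 fold change from PBS was 0.85 with IL-33 (SE 0.08, edgeR adjusted p 8.3e-05) and 0.94 with IL-33+LM8 (SE 0.12, edgeR adjusted p 0.0014), and from IL-33 to LM8 it was 0.07 (SE 0.10, edgeR adjusted p 0.65).

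**Figure D3:**
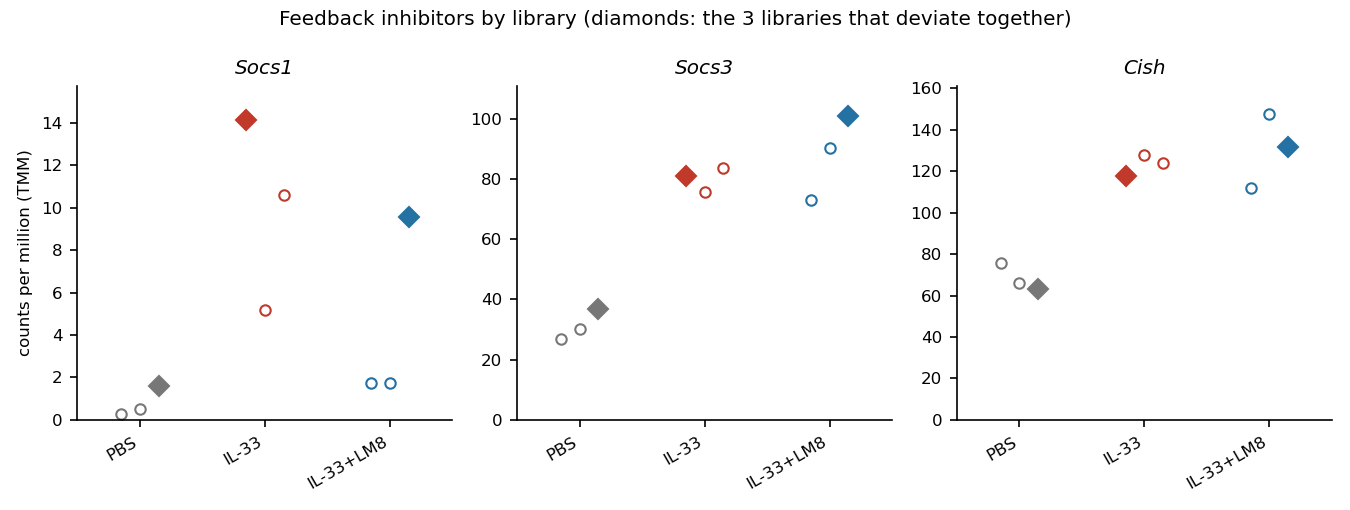
CPM (counts scaled to library size, TMM-normalised, linear axes from 0) of the 3 feedback inhibitors in each library, ordered by replicate number within each group; filled diamonds are the 3 libraries that stood apart together and open circles the other 6. For *Socs1* the diamond is the highest point of every group, at 1.57, 14.2 and 9.58, whereas for *Cish* it is the highest in no group.

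Among the members, the order of levels in FPKM also changed with IL-33. In PBS lungs *Stat6* (mean 42.5) was highest, followed by *Jak1* (34.8), *Il4ra* (25.5), *Il2rg* (22.4), *Jak3* (16.8), *Il13ra1* (15.3), *Socs3* (10.4), *Cish* (10.2), *Socs1* (0.250) and *Il13ra2* (0). In IL-33 lungs *Il2rg* (mean 51.2) came first, above *Jak1* (42.1), *Stat6* (37.9) and *Il4ra* (33.3), with *Socs3* (26.6), *Jak3* (26.4), *Cish* (18.4), *Il13ra1* (16.3), *Socs1* (3.29) and *Il13ra2* (2.14) below. In IL-33+LM8 lungs *Jak1* (41.5), *Stat6* (41.3), *Il2rg* (40.1) and *Il4ra* (38.2) stood close together, each with a range that overlapped its neighbour. Ranges of neighbours also overlapped for *Jak3* and *Il13ra1* and for *Socs3* and *Cish* in PBS lungs, for *Socs3* and *Jak3* and for *Socs1* and *Il13ra2* in IL-33 lungs, and for *Socs3* and *Jak3*, *Il13ra1* and *Cish*, and *Il13ra2* and *Socs1* in IL-33+LM8 lungs. All other neighbours in these orders had separate ranges.

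**Figure D4:**
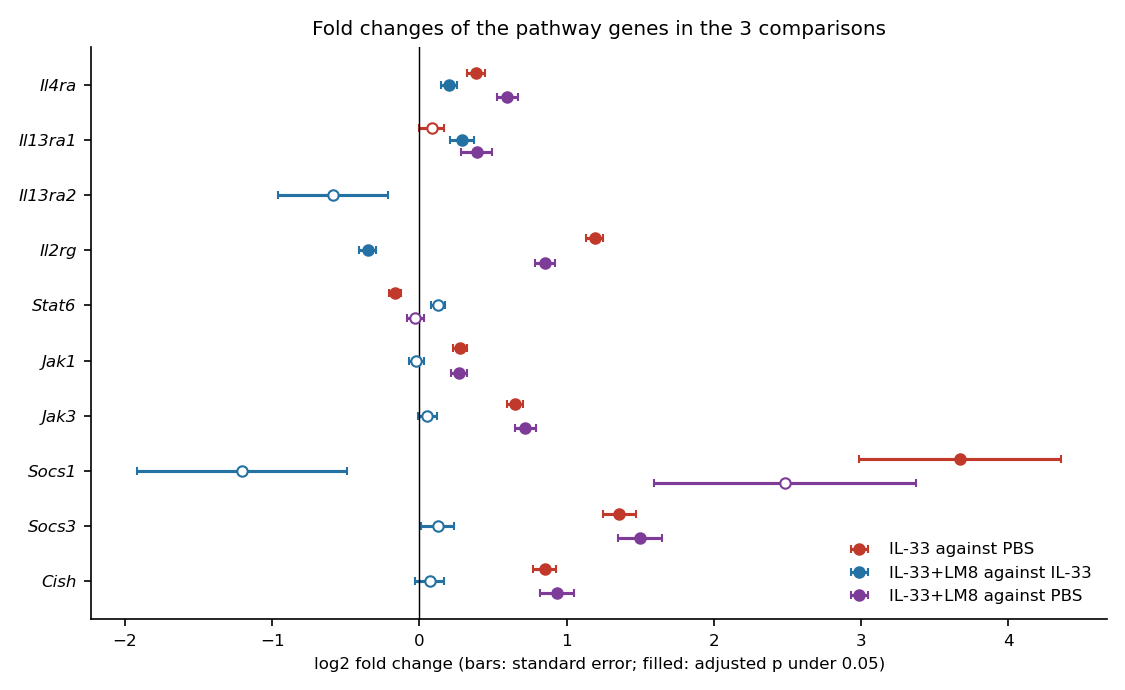
Log2 fold changes (x axis) of the pathway genes in the 3 comparisons, with bars for the standard error and filled points for an edgeR adjusted p under 0.05; *Il13ra2* is drawn only for IL-33+LM8 against IL-33 because its PBS libraries are all at 0. Between IL-33+LM8 and IL-33 mice the filled points are *Il4ra* at 0.20, *Il13ra1* at 0.29 and *Il2rg* at -0.35.

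The ligands had unequal levels. *Il13* had 0 to 4 counts in the PBS mice, 181 to 204 in the IL-33 mice and 79 to 261 in the IL-33+LM8 mice, with means of 2.54 ± 0.40 and 1.93 ± 1.24 FPKM (SD, n = 3) in the challenged groups. It was 7.16 log2 units higher with IL-33 than with PBS (SE 0.82, edgeR adjusted p 0.00028) and 6.79 higher with IL-33+LM8 (SE 1.00, edgeR adjusted p 0.0028), and these sizes rest on the few PBS counts. *Il13* too passed the filter on low values only through the groups given IL-33. The challenged groups overlapped, with a log2 fold change of -0.39 (SE 0.43, edgeR adjusted p 0.56), or -1.05 and past the threshold without IL-33+LM8 replicate 2. *Il4* was at 0.701 ± 0.18, 0.991 ± 0.20 and 0.502 ± 0.041 FPKM (SD, n = 3) in PBS, IL-33 and IL-33+LM8 mice. Its log2 fold change was 0.49 with IL-33 (SE 0.30, edgeR adjusted p 0.20), and from IL-33 to LM8 it fell by 0.97 log2 units (SE 0.27, edgeR adjusted p 0.034), a call that was lost when any mouse other than IL-33 replicate 1 was left out.

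Receptors that use the common gamma chain with another partner were mostly higher with IL-33. Of 6 such chains, 5 were higher and 1 lower than with PBS, and 5 were higher with LM8 than with PBS. From IL-33 to LM8, 3 were lower and 0 higher (0 at an unadjusted p under 0.05 in edgeR and 0 with DESeq2 or limma). Of all tested genes, 27.4% were higher and 27.2% lower with IL-33 than with PBS. The shares were 12.6% and 13.9% for LM8 against IL-33, and 16.3% and 13.4% for LM8 against PBS. *Il9r*, the IL-9 receptor of mast cells and innate lymphoid cells, was at 0.454 ± 0.066, 9.67 ± 0.89 and 2.78 ± 0.40 FPKM (SD, n = 3) in PBS, IL-33 and IL-33+LM8 mice. It was 4.39 log2 units higher with IL-33 (SE 0.13, edgeR adjusted p 1.1e-06) and fell by 1.79 with LM8 (SE 0.12, edgeR adjusted p 0.00014). *Il7r*, the IL-7 receptor of lymphocytes, was 2.34 higher with IL-33 and fell by 1.29 with LM8 (edgeR adjusted p 6.2e-06 and 0.00066), and *Il21r* was 1.96 higher and fell by 0.85 (edgeR adjusted p 1.1e-05 and 0.002). *Il2ra*, the IL-2 receptor alpha chain, was 3.58 log2 units higher with IL-33 (SE 0.15, edgeR adjusted p 2.7e-06), while its log2 fold change with LM8 was -0.22 (SE 0.19, edgeR adjusted p 0.46). The other two chains, *Il2rb* (1.07) and *Il15ra* (-0.33), had smaller log2 fold changes with IL-33 than *Il2rg*, the chain they all share, and the 4 named before them had larger ones.

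Of 29 other genes of JAK, STAT, adaptor, phosphatase and SOCS or PIAS families, 17 were higher and 8 lower with IL-33 than with PBS. Their median log2 fold change was 0.38, and 27.4% of all tested genes were higher and 27.2% lower. With LM8, 1 was higher and 11 lower than with IL-33 (median -0.14), beside 12.6% and 13.9% of all tested genes. Against PBS, 11 were higher and 4 lower with LM8 (median 0.17), beside 16.3% and 13.4%. The shares lower than with PBS were near those of all genes in both comparisons. Without the 3 libraries that stood apart, 4 of the 29 genes, in place of 12, passed between LM8 and IL-33 mice. For that fit the share of all tested genes that passed was not computed. *Stat4*, a transcription factor of IL-12 signalling, was at 1.84 ± 0.41, 6.82 ± 0.51 and 4.43 ± 0.32 FPKM (SD, n = 3) in PBS, IL-33 and IL-33+LM8 mice, with log2 fold changes of 1.89 with IL-33 and -0.62 from IL-33 to LM8 (edgeR adjusted p 8.6e-05 and 0.0026). *Pik3cd*, a PI3 kinase subunit of leukocytes, and *Ptpn6*, the phosphatase SHP-1, were 1.64 and 1.26 log2 units higher with IL-33 (edgeR adjusted p 4.3e-06 and 6.2e-06) and fell by 0.38 and 0.24 with LM8 (edgeR adjusted p 0.0028 and 0.013). *Ptpn2*, a phosphatase that acts on Janus kinases and STATs, was 1.00 higher with IL-33 and fell by 0.56 with LM8, and *Socs6* was 0.62 higher and fell by 0.55 (edgeR adjusted p 0.00013, 0.015, 0.00029 and 0.0027). The fall of *Ptpn6* did not pass without IL-33 replicate 3 or IL-33+LM8 replicate 3, nor that of *Ptpn2* without IL-33 replicate 1. The kinases known to act with IL-13Rα1, chosen after their values were seen, moved the same way. *Jak2* was at 16.9 ± 1.2 FPKM with PBS and 36.5 ± 2.3 FPKM with IL-33, with log2 fold changes of 1.11 with IL-33 and -0.54 with LM8 (edgeR adjusted p 1.5e-05 and 0.0025), and *Tyk2* had log2 fold changes of 0.58 and -0.38 (edgeR adjusted p 9.7e-05 and 0.0081).

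Genes known to be induced by IL-4 or IL-13 in myeloid cells had larger median changes with IL-33 than the lists of receptors and signalling genes, as did those of epithelium and stroma. The lists were chosen with earlier results of these data known, so their counts describe the lists and are not independent support. Nor do the genes of the myeloid list report on myeloid cells alone. In house dust mite models the paper found staining for RELMα, the product of *Retnla*, mainly in the airway epithelium. Of 15 myeloid target genes, 14 were higher with IL-33 than with PBS and 0 were lower (0 at an unadjusted p under 0.05 in edgeR and 0 with DESeq2 or limma), with a median log2 fold change of 4.11. From IL-33 to LM8, 11 were lower and 0 higher in edgeR (1 higher at an unadjusted p under 0.05, 1 with DESeq2 and 0 with limma), with a median of -0.86, and 14 were higher with LM8 than with PBS (median 3.46). Of all tested genes, 27.4% were higher and 27.2% lower with IL-33 than with PBS. The shares were 12.6% and 13.9% for LM8 against IL-33, and 16.3% and 13.4% for LM8 against PBS. *Chil4*, a chitinase-like protein, was at 1.37 ± 0.90, 519 ± 66 and 221 ± 30 FPKM (SD, n = 3) in PBS, IL-33 and IL-33+LM8 mice. *Ccl24*, an eosinophil attractant, was at 0.656 ± 0.27, 176 ± 12 and 43.0 ± 21 FPKM, with log2 fold changes of 8.08 with IL-33 and -2.03 from IL-33 to LM8 (edgeR adjusted p 1.3e-06 and 0.0041). *Pdcd1lg2*, the checkpoint ligand PD-L2, and *Arg1*, arginase 1, were 6.54 and 6.76 log2 units higher with IL-33 (edgeR adjusted p 1.2e-05 and 6.3e-06) and fell by 2.41 and 2.35 with LM8 (edgeR adjusted p 4.6e-05 and 0.00028). *Retnla*, which encodes the secreted protein RELMα, was 7.26 higher with IL-33 (SE 0.28, edgeR adjusted p 2.5e-06), and its log2 fold change with LM8 was -0.35 (SE 0.17, edgeR adjusted p 0.17), or -0.53 and past the threshold without IL-33+LM8 replicate 2. The summed macrophage and eosinophil markers given above moved in the same directions, though not every marker did: with IL-33, 2 of 6 macrophage markers (*Marco* and *Mertk*) and 1 of 6 tested eosinophil markers (*Ear1*) were lower, and *Marco* rose by 1.26 log2 units from IL-33 to LM8. With LM8 against PBS, 1 of 6 macrophage markers and 2 of 6 tested eosinophil markers were lower. *Mrc1* is on the macrophage marker list as well as on this one.

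Of 11 epithelial and stromal targets, 10 were tested (*Foxa3* was below the filter), and 9 of these were higher with IL-33 than with PBS and 0 lower (0 at an unadjusted p under 0.05 in edgeR and 0 with DESeq2 or limma), with a median log2 fold change of 5.29. With LM8, 1 was higher and 4 were lower than with IL-33 (median -0.15), and 9 were higher and 1 lower than with PBS (median 4.84). The same shares of all tested genes apply here: 27.4% higher and 27.2% lower with IL-33 than with PBS. They were 12.6% and 13.9% for LM8 against IL-33, and 16.3% and 13.4% for LM8 against PBS. *Clca1*, a secreted regulator of goblet cell mucus, was at 5.04 ± 4.1, 410 ± 21 and 481 ± 4.6 FPKM (SD, n = 3) and was the 1 target that passed as higher in LM8 than in IL-33 mice, by 0.23 log2 units (SE 0.07, edgeR adjusted p 0.041). *Slc26a4*, the anion exchanger pendrin, was at 0.593 ± 0.11, 84.3 ± 10 and 75.0 ± 23 FPKM, with a log2 fold change of 7.14 with IL-33 (edgeR adjusted p 5.1e-07) and of -0.17 with LM8 (SE 0.22, edgeR adjusted p 0.64). *Muc5ac*, the airway mucin, was at 0.177 ± 0.057, 12.5 ± 1.5 and 6.09 ± 0.31 FPKM and fell by 1.04 with LM8 (SE 0.09, edgeR adjusted p 0.00033). *Itln1*, a lectin of mucus-producing cells, fell by 0.94 and *Serpinb2*, a protease inhibitor, by 0.84 with LM8 (edgeR adjusted p 0.032 and 0.0052). The call of *Clca1* was lost when any mouse other than IL-33+LM8 replicate 1 was left out, and that of *Itln1* without IL-33 replicate 1 or 2 or IL-33+LM8 replicate 3. Without the 3 libraries that stood apart, 2 of the 10 epithelial and stromal targets and 9 of the 15 myeloid targets passed between LM8 and IL-33 mice. That fit had 2 mice per group, and the share of all tested genes that passed in it was not computed. Whether LM8 acted differently on the myeloid and the epithelial lists was not tested.

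**Figure D5:**
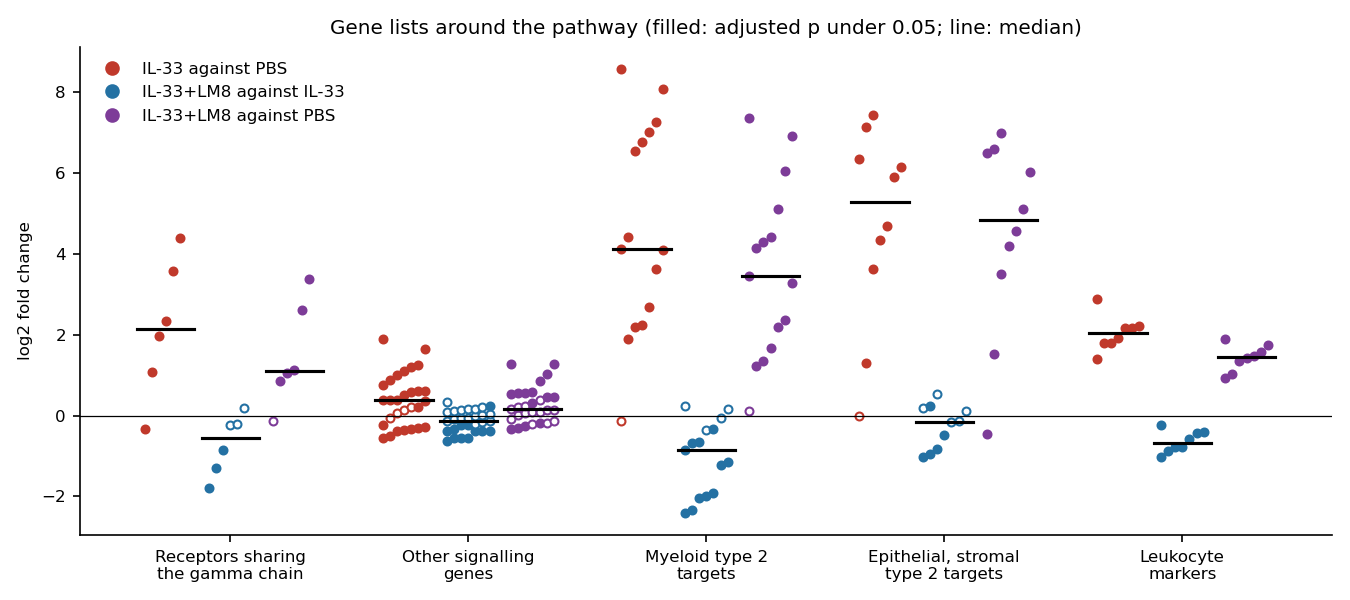
Log2 fold change (y axis) of every tested gene of 4 lists around the pathway and of the leukocyte markers, in the 3 comparisons; filled points have an edgeR adjusted p under 0.05 and the line is the median of the list. From IL-33 to IL-33+LM8 the medians are -0.86 for myeloid targets and -0.15 for epithelial and stromal targets, against 4.11 and 5.29 from PBS to IL-33.

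The genes whose levels followed each receptor chain and *Stat6* most closely were taken as those with the highest Pearson correlation of log2(FPKM + 1) over the 9 mice, among 14664 genes. These values describe the 9 libraries, which share 3 groups, and have no test. For *Il4ra* they were *Qsox1* (0.988), *Ugt1a7c* (0.983) and *Slc4a2* (0.982), each highest with LM8. The nearest to *Il13ra1* were *Adh7* (0.966), *A2ml1* (0.962) and *Sod2* (0.959). *Il13ra2* was nearest to *St3gal4* (0.991), *Abcd2* (0.990) and *Hnrnpm* (0.990). *Il2rg* was nearest to *Ms4a4a* (0.997), *Itgae* (0.996) and *Parvg* (0.995), with *Ms4a4a* at means of 1.35, 11.2 and 5.88 FPKM in PBS, IL-33 and IL-33+LM8 mice. For *Stat6* the nearest were *Tulp3* (0.982), *Adcy9* (0.981) and *4930481A15Rik* (0.976), each lowest with IL-33.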

How the data were processed

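Lung RNA of 9 mice, 3 per group, was sequenced in paired ends, and the labels give each mouse its treatment. A single table deposited by the authors holds raw read counts and FPKM values for every gene. The submitters' processing notes name Bowtie 0.12.2, HISAT2 2.0, StringTie 1.3.0 and mm10; only 620 of 32643 shared gene IDs had the same start and end in GENCODE M21 (GRCm38), so gene coordinates are those of the table, whose build is not given here, and promoter coordinates are those of RefSeq GRCm38.p6. Total counts were 61767006 to 73869252 (PBS), 53877663 to 66029783 (IL-33) and 59753648 to 90607218 (IL-33+LM8). The floor of 3 counts per library covers counting error only.

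Fits used the 6 mice of each comparison and edgeR 4.0.16 (quasi-likelihood test, TMM, R 4.3.3) on the deposited counts of genes whose FPKM averaged 0.5 or more over the 9 mice and whose counts in those 6 were not all 0. Genes that averaged under 0.5 FPKM in PBS mice could enter only through the groups given IL-33. Their calls against PBS are not independent of this filter. A gene passed at a Benjamini-Hochberg adjusted p under 0.05 over all tested genes. The SE is the log2 fold change divided by the square root of F. P-values set the difference between groups against the spread between mice of a group, which includes any shift of the 3 libraries that stood apart. In edgeR that spread is estimated with information shared over genes. Exact two-sided permutation tests used 3 against 3 mice. The ratio of *Il13ra2* to *Il13ra1* was tested on the log2 scale between challenged groups and as a plain ratio against PBS, where it was 0. Simulated counts with known changes served to test the fits.

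The members and lists were chosen with earlier results of these data known. Named genes are the 10 members, both ligands, per list and comparison the 3 genes with the largest absolute log2 fold change among those that passed, and the 3 most similar genes of each receptor chain and *Stat6*, with others marked as chosen after seeing values. Alternatives were DESeq2 1.42.0, limma 3.58.1 on log2(FPKM + 1) or log2(FPKM + 0.1), median-of-ratios factors, other filters, a minimum fold, all mice in 1 fit, a replicate block and leaving out each mouse. A term for the 3 libraries that stood apart, and their removal, were added after seeing the data. Deviations from group means of mice with the same number correlated at 0.45, 0.49 and 0.77 between PBS and IL-33+LM8, above a limit of 0.1 set for pairing. IL-33+LM8 replicate 1 with PBS replicate 2, and IL-33+LM8 replicate 2 with PBS replicate 1, reached 0.36 and 0.38 as well. The value of 0.77 is between replicates that both stood apart, so pairing by number cannot be told from that shift. In the comparisons with IL-33 the same numbers correlated at -0.58 to 0.44 and -0.62 to 0.36, which does not count as pairing. No source says what the numbers mark.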

Additional observations from a re-analysis of the deposited data

How the results depend on the processing

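With 3 mice per group, small differences were at the limit of what the fits could call. Shares of all tested genes were computed only for the main fit and for the minimum fold. The counts below under other settings therefore have no such share beside them. Over all alternatives, 430 values of the members had the same direction and call as in the report, 30 lost a call, 10 gained one and 4 changed sign. All sign changes were between IL-33+LM8 and IL-33 and near 0: *Jak1* 0.0073 when IL-33 replicate 1 was left out and 0.0011 without IL-33+LM8 replicate 2, *Jak3* -0.0058 without IL-33+LM8 replicate 1, *Cish* -0.030 without IL-33+LM8 replicate 2, and, among other named genes, *Slc26a4* 0.069 without IL-33+LM8 replicate 1. The causes were not tested.

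With a log2 fold change of at least 1 also required, the members that passed went from 9 to 4 (IL-33 against PBS), from 3 to 0 (IL-33+LM8 against IL-33) and from 8 to 2 (IL-33+LM8 against PBS). The other signalling genes went from 25 to 5, 12 to 0 and 15 to 3, the myeloid targets between challenged groups from 11 to 7, and the epithelial and stromal targets from 5 to 1. At a mean FPKM of at least 5 fewer genes were tested, and the gamma chain partners went from 6 to 2, 3 to 1 and 5 to 2, and the epithelial and stromal targets from 5 to 3 between challenged groups (2 with all 9 mice in 1 fit). With no filter *Il13ra1* had log2 fold changes of 0.30 (adjusted p 0.058) with LM8 against IL-33 and 0.41 (0.053) against PBS, where limma gave 0.35 (0.051) and, at the smaller pseudocount, 0.37 (0.051). *Stat6* gained a call with all 9 mice in 1 edgeR fit (0.14, adjusted p 0.047, LM8 against IL-33), and *Socs1* against PBS with DESeq2 (2.48, 0.047) or all 9 mice (2.48, 0.046).

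With replicate numbers as a block, which do not pair the samples in the comparisons with IL-33, 1 in place of 3 members passed between challenged groups (*Il4ra* 0.20, adjusted p 0.11, and *Il13ra1* 0.28, 0.093, did not), and *Stat6* with IL-33 was at -0.17 (0.052). Between IL-33+LM8 and PBS the block changed the call of *Socs1* (2.38) and of no other member. Pairing by number cannot be told there from the shift of the libraries that stood apart.

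Without the 3 libraries that stood apart, 2 mice per group remained. Between challenged groups 1 member (*Socs1*, -2.19), 4 other signalling genes and 2 epithelial and stromal targets passed, and *Il4ra* (0.24), *Il13ra1* (0.30) and *Il2rg* (-0.34) did not. *Stat6* with IL-33 (-0.16), and with LM8 against PBS *Il13ra1* (0.36) and *Jak1* (0.26), did not pass, 9 signalling genes did, and *Socs1* gained a call (2.19). A term for these libraries gave *Socs1* calls at -1.63 and 2.35.

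With each mouse left out in turn there were 8 to 9, 1 to 3 and 6 to 8 members in the 3 comparisons, 10 to 13 and 11 to 16 other signalling genes with LM8 against IL-33 and PBS, and 3 to 6 epithelial and stromal targets between challenged groups. The ranges of the log2 fold changes that lost or gained a call were, with IL-33, -0.18 to -0.14 for *Stat6*, from IL-33 to LM8, 0.16 to 0.24 for *Il4ra*, 0.23 to 0.37 for *Il13ra1* and -2.53 to -0.83 for *Socs1*, and with LM8 against PBS, 0.31 to 0.48 for *Il13ra1*, 0.25 to 0.30 for *Jak1* and 1.15 to 3.52 for *Socs1*. The sign changes lay in ranges of -0.048 to 0.0073 (*Jak1*), -0.0058 to 0.090 (*Jak3*), -0.030 to 0.17 (*Cish*) and -0.33 to 0.069 (*Slc26a4*). The ratio of *Il13ra2* to *Il13ra1* was 0.081 in IL-33 mice from counts, and on the scale log2 of the ratio of FPKM + 0.1 it differed from PBS by 4.39 with IL-33 and 3.43 with LM8, sizes that the pseudocount sets because *Il13ra2* was at 0 in PBS mice.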
